A study of Mus musculus with 36 samples.

Results

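Whole brains of mice with experimental autoimmune encephalomyelitis (EAE) that had been gavaged with corn oil (vehicle, n = 9) were compared with whole brains of EAE mice that had received no treatment (n = 9). The libraries were taken by their labelled treatment and made up 18 of the 36 libraries of the series. The other libraries came from 10 EAE mice gavaged with 100 mg per kg per day of farnesol in corn oil and from 8 naive mice. Every mouse was labelled WT C57BL/6, and the tissue was whole brain at day 19, described as the peak of disease. EAE is a model of multiple sclerosis, and in both groups it had been induced with the MOG35-55 peptide of myelin oligodendrocyte glycoprotein in complete Freund's adjuvant. Pertussis toxin was given with the emulsion and again on the next day. Vehicle mice were gavaged daily. Untreated mice had neither the oil nor the procedure, so an effect of the oil and an effect of repeated gavage cannot be told apart in this comparison. Gavage without oil, gavage in healthy mice and adjuvant without the peptide were not analysed here. The sources used here do not give age, sex or the day on which gavage began.

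Gavage combines restraint with passage of a tube into the stomach, and repeated handling of this kind can act as a stressor in rodents. Corn oil is a triglyceride load rich in linoleic acid, and cells respond to fatty acids and sterols through the PPAR receptors and the SREBP factors. Cells that handle misfolded proteins raise chaperones through separate routes, with the factor HSF1 acting on cytosolic chaperone genes and the unfolded protein response (ATF6 and XBP1) acting on chaperones of the endoplasmic reticulum (ER). In EAE, lymphocytes, monocytes and neutrophils enter the central nervous system while microglia and astrocytes are activated.

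Total counts were 14.7 to 24.2 M reads in untreated and 19.2 to 22.1 M in vehicle libraries, with means of 20.5 M in each group (two-sided exact permutation test of the difference, p = 0.955). The share of mitochondrially encoded counts was 4.43 ± 0.50% (SD, n = 9) in untreated and 4.52 ± 0.26% (SD, n = 9) in vehicle libraries. The myelin gene Mbp stood at 2065 CPM or more in all 18 libraries (CPM, a gene's counts relative to library size, scaled by TMM factors). The TMM factors averaged 1.004 in untreated and 1.021 in vehicle libraries (two-sided exact permutation test, p = 0.0197, Benjamini-Hochberg adjusted p = 0.118). Genes with 1 or more counts averaged 25986 in untreated and 26413 in vehicle libraries (same test, p = 0.0803, adjusted p = 0.241). Sbp, which encodes a protein of the prostate, stood above 1 CPM in untreated replicates 1 to 5 and vehicle replicates 3 to 5, at 3.86 to 12.4 CPM, and at 0.150 CPM or less in the other 10. The Y-linked gene Ddx3y was at most 0.051 CPM in the same 18 libraries. The summed level of 14 prostate and seminal vesicle genes was 1.64 to 16.9 CPM in untreated and 1.15 to 11.4 CPM in vehicle libraries, and 3 of the 14 (Svs2, Svs4 and Svs6, of the seminal vesicle) were at 0 in all 18. Where the Sbp transcripts came from was not tested. Because these libraries were not spread evenly between the groups, the main results are also given without them. Untreated replicate 3 was low in cerebellar genes, with a mean log2 level of 4.49 against a group median of 6.94. Untreated replicates 1 and 2 had 6.63 and 6.39, and vehicle libraries ran from 6.80 to 7.30. The difference between the groups had p = 0.184 (two-sided exact permutation test).

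Few genes differed between vehicle-gavaged and untreated EAE brains. Of 18438 genes tested, 4 (0.0217%) differed at an adjusted p below 0.05 (edgeR quasi-likelihood test, Benjamini-Hochberg adjustment), and all 4 fell: Ier5, Kcnip3, Synj2 and Fmnl1. No gene rose. The size of these falls was modest, between 0.28 and 0.43 on the log2 scale. The p-values set each difference against the spread within groups, which was estimated over all 36 libraries of the 4 groups. Nothing in the labels says beyond the replicate numbers that each library came from a separate animal.

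Ier5 (immediate early response 5, ENSMUSG00000056708, GRCm38 chr1:155096361-155099636) encodes a nuclear protein that is induced by HSF1 and acts with it on chaperone genes. Its lowest, median and highest levels were 80.6, 85.1 and 96.0 CPM in untreated libraries. The corresponding levels in vehicle libraries were 54.1, 63.9 and 76.6 CPM. All 9 vehicle libraries therefore lay below all 9 untreated libraries. Ier5 fell by 0.43 on the log2 scale (SE 0.081, adjusted p = 0.0391 by edgeR), which is a fitted decrease of 25.9%. Its size was similar in libraries with and without Sbp: means were 86.8 and 63.8 CPM (untreated and vehicle) where Sbp was present, and 87.1 and 64.7 CPM where it was not. Complete separation with vehicle libraries below held for 2 of all genes tested (0.0108%), Ier5 and Banp. No gene (0%) had all vehicle libraries above all untreated libraries. For a single gene, complete separation to either side has a two-sided exact permutation p of 4.11e-05. Among 18438 genes it can therefore arise without a difference, and for Ier5 it rests on the same values as the call. Banp encodes a DNA-binding protein of the nuclear matrix and measured 31.7 to 40.5 CPM in untreated and 21.1 to 30.6 CPM in vehicle libraries, with an adjusted p of 0.164 by edgeR; it is named because it separated the groups, after its values were seen.

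Kcnip3 (ENSMUSG00000079056, chr2:127456498-127522094) encodes KChIP3, also called DREAM or calsenilin, a calcium-binding protein of neurons that associates with potassium channels and represses transcription. Its lowest, median and highest levels were 98.4, 104 and 130 CPM in untreated and 81.3, 89.3 and 98.7 CPM in vehicle libraries. Only 1 vehicle library reached into the untreated range. Kcnip3 fell by 0.28 on the log2 scale (SE 0.053, edgeR adjusted p = 0.0391).

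Synj2 (ENSMUSG00000023805, chr17:5941280-6044290) encodes synaptojanin 2, a phosphatase of inositol phospholipids involved in vesicle traffic. It measured 78.6, 92.8 and 105 CPM (lowest, median, highest) in untreated and 61.3, 73.6 and 85.2 CPM in vehicle libraries. The ranges overlapped, although all 9 vehicle libraries lay below the untreated median. Synj2 fell by 0.30 (log2, SE 0.058, edgeR adjusted p = 0.0391).

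Fmnl1 (ENSMUSG00000055805, chr11:103171107-103198901) encodes a formin, which elongates actin filaments and is abundant in leukocytes. Levels were 122, 142 and 161 CPM in untreated and 94.4, 115 and 133 CPM in vehicle libraries (lowest, median, highest). The ranges overlapped, and 7 of 9 vehicle libraries lay below the lowest untreated one. Fmnl1 fell by 0.34 (log2, SE 0.066, edgeR adjusted p = 0.0391). In whole tissue, fewer cells that express a gene and less RNA per cell cannot be told apart.

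**Figure D1:**
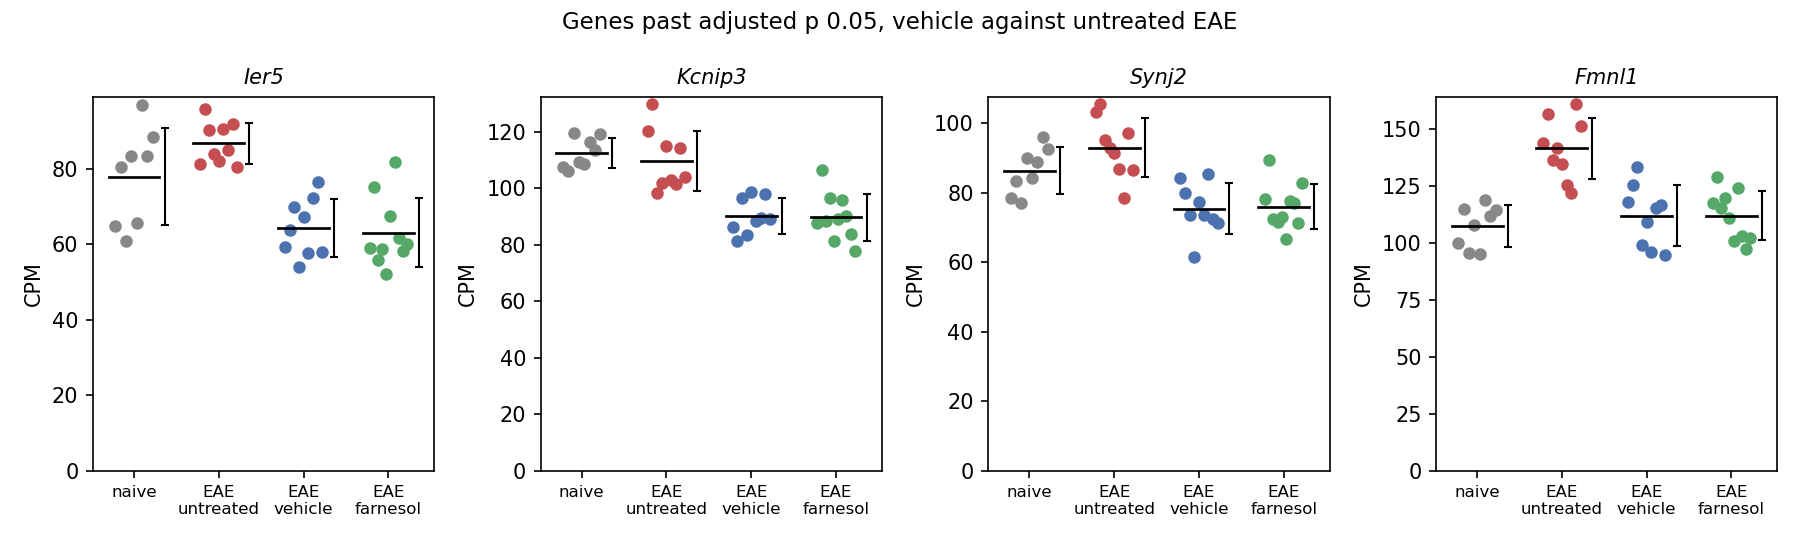
Levels (CPM, linear axis from 0) of Ier5, Kcnip3, Synj2 and Fmnl1 in every library of the naive, untreated EAE, vehicle EAE and farnesol EAE groups; points are libraries, bars are means and brackets are the mean ± SD. For Ier5 the 9 vehicle points, from 54.1 to 76.6 CPM, all sit below the 9 untreated points, from 80.6 to 96.0 CPM.

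The 4 calls did not hold in every setting. The direction was the same in each one run, but none of the 4 passed the threshold in the edgeR fit without the 5 untreated libraries that held Sbp, or without all 8 that held it. The log2 change of Ier5 was -0.44 (adjusted p = 0.15) in the former and -0.43 (adjusted p = 0.24) in the latter. The change of Synj2 was -0.21 without the 5 and -0.17 without the 8, while Fmnl1 stayed at -0.32 and -0.34 and Kcnip3 at -0.23 and -0.25. The edgeR fit without the 5 untreated libraries called 11 other genes instead. Its smallest group held 4 libraries, so its count filter was looser. It tested 19163 genes, against 18438 in the fit of all libraries. Lower in vehicle libraries there were Tnni2, a troponin of fast muscle (log2 -3.34, edgeR adjusted p = 0.0231), and Lag3, an inhibitory receptor (log2 -1.25). For Tnni2, no level and no change in the fit of all libraries are given here. Lag3 measured 7.20 to 16.8 CPM in untreated libraries with Sbp and 31.0 to 36.6 CPM in those without. Which cells its reads came from was not tested. Also lower were the immunoglobulin heavy chain genes Ighg2c and Ighm (log2 -1.15 and -0.69) and the ERK pathway inhibitor gene Spry4 (log2 -0.61). The zinc finger factor gene Klf10 (log2 -0.54), Bmpr1b (log2 -0.35) and Vps37b (log2 -0.31) completed the lower genes. Higher were Gm15743, Eva1a and Fam214a (log2 1.27, 0.47 and 0.35). In the fit of all libraries the changes of Lag3, Ighg2c and Ighm were -0.61, -0.67 and -0.25, with edgeR adjusted p-values of 0.55, 0.349 and 0.71. None of the 11 was called by edgeR without all 8 libraries, where no gene passed. In an edgeR fit of the 18 libraries alone Ier5 was the single call (adjusted p = 0.015). When each of the 18 libraries was left out in turn, Ier5 passed in 7 fits, Kcnip3 in 8, Synj2 in 6 and Fmnl1 in 5. Their adjusted p reached at most 0.146 in these fits (0.163 for Fmnl1), and Ier5 kept a log2 change between -0.47 and -0.40. The number of genes called was 0 without untreated replicate 1, 2, 5 or 8 and without vehicle replicate 1, 4, 5, 6 or 9, and it reached 15 without vehicle replicate 2.

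The levels of the 4 genes in the other groups differed from gene to gene. These comparisons share libraries with the one above and are given side by side only. Naive libraries had 106 to 119 CPM of Kcnip3, within the untreated range, and farnesol libraries had 77.8 to 106 CPM. Fmnl1 showed another order, with 95.2 to 119 CPM in naive and 97.2 to 129 CPM in farnesol libraries, close to the vehicle range. Ier5 spread from 60.9 to 97.0 CPM in naive and from 52.3 to 81.8 CPM in farnesol libraries. Synj2 lay between 77.0 and 96.0 CPM in naive and between 66.7 and 89.3 CPM in farnesol libraries. Against naive brains, 1 of the 4 genes was called in untreated EAE (Fmnl1, log2 0.40, SE 0.066, adjusted p = 4.81e-05), where 24.9% of all genes were called. Against the same naive brains, 3 of the 4 were called in vehicle EAE, where 31.5% of all genes were called: Kcnip3 (log2 -0.32, adjusted p = 3.33e-05), Ier5 (log2 -0.28, adjusted p = 0.0104) and Synj2 (log2 -0.19, adjusted p = 0.0123), all by edgeR. None of the 4 differed between farnesol and vehicle EAE (edgeR adjusted p = 0.998 for Ier5, Kcnip3 and Synj2 and 0.999 for Fmnl1), where 0.0922% of all genes were called. The log2 changes there ran from -0.03 for Ier5 to 0.01 for Synj2. Both of those groups were gavaged with oil. In the ribosomal RNA gene CT010467.1, 7 of the 10 farnesol libraries had 5091 to 17689 CPM and the other 3 had 1613 to 2430 CPM, against 1284 to 2784 CPM in vehicle libraries, and its part in the comparison of farnesol with vehicle was not tested. The naive libraries also differed from all EAE vehicle and untreated libraries in CT010467.1 (7464 to 10707 CPM against 1284 to 2784 CPM), and its part in the comparisons with naive was not tested.

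Several of the genes next in order belong to the chaperone systems. The smallest adjusted p below the 4 calls was 0.0509, shared by Clip2, Galnt9 and Dnajb1, so none of the following genes passed in the edgeR fit of all 36 libraries. Other fits called several of them: DESeq2 called Clip2, Galnt9, Dnajb1, Manf, Hyou1, Hspa5, Zbtb25, Ciart, Tut4 and Cd46, and both limma-voom and edgeR with a filter of 1 CPM in 9 libraries called Clip2, Galnt9, Dnajb1, Manf, Hspa5 and Zbtb25. Clip2, a microtubule linker protein, measured 160 to 198 CPM in untreated and 141 to 161 CPM in vehicle libraries (log2 -0.21, SE 0.043). Galnt9, an enzyme that starts O-linked glycans in the brain, measured 91.6 to 135 and 76.9 to 95.9 CPM (log2 -0.34, SE 0.069). Galnt9 overlapped between the groups in a narrow band only. Manf, Hyou1 and Hspa5, which are ER proteins, followed with adjusted p-values from 0.0641 to 0.067. Of the genes higher in vehicle libraries, Zbtb25, a zinc finger protein, had the smallest p (log2 0.30, SE 0.063, adjusted p = 0.0641). Its levels were 8.55, 9.72 and 11.5 CPM in untreated and 10.6, 12.4 and 13.1 CPM in vehicle libraries (lowest, median, highest), and 8 of 9 vehicle libraries exceeded the highest untreated one. Other genes on the higher side were Ciart, Nr1d2 and Dbp of the circadian clock, Tut4, which adds uridines to RNA ends, the RNA-binding protein gene Hnrnpdl, the complement regulator gene Cd46, and Muc15, Zfp354b and Mospd1 (log2 0.15 to 0.62, adjusted p = 0.0961 to 0.219).

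**Figure D2:**
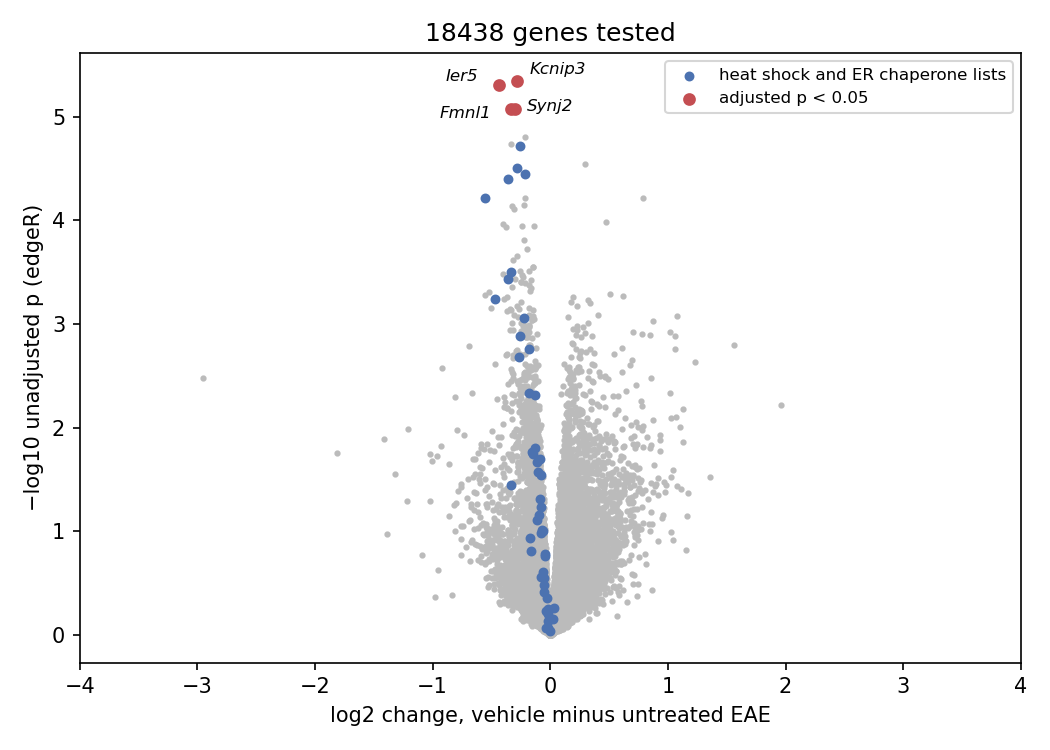
The log2 change (vehicle minus untreated EAE, x axis) against −log10 of the unadjusted edgeR p (y axis) for 18438 genes; red points passed an adjusted p of 0.05 and blue points are the other members of the cytosolic heat shock and ER chaperone lists. The 4 red points all lie left of 0, and of the blue points 2 lie right of 0.

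To describe groups of genes below that threshold, members of each list are counted at an unadjusted p below 0.05, beside the share of all genes on the same side: 4.40% of the genes tested lay lower in vehicle libraries at that p (811 genes), and 3.86% lay higher (711 genes). The median log2 change of all genes was 0.0059. These counts describe the lists, whose members are expressed together in these same libraries, and no test of a list was made.

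Cytosolic heat shock genes lay lower in vehicle libraries. Of 23 tested, 1 passed the adjusted threshold (Ier5), 11 lay lower at an unadjusted p below 0.05 and 0 lay higher. Ier5 is among the 11, is not itself a chaperone and is the call described above. No other member passed in the edgeR fit of all libraries. The list was chosen with earlier results of these data known. All 23 had a negative log2 change, with a median of -0.09. Dnajb1, the HSP40 co-chaperone that hands substrates to HSP70, measured 52.9, 60.0 and 70.8 CPM in untreated and 44.8, 52.3 and 56.2 CPM in vehicle libraries (log2 -0.26, SE 0.053, edgeR adjusted p = 0.0509). The groups overlapped by 3 vehicle libraries. Hspa1b, an inducible HSP70, measured 9.26, 11.2 and 17.5 CPM in untreated and 6.72, 7.66 and 9.44 CPM in vehicle libraries (log2 -0.56, SE 0.12, edgeR adjusted p = 0.0807). Only 1 vehicle library reached into the untreated range. Hspa1a is a near-identical copy of Hspa1b, and how reads were divided between them is uncertain. Hsph1 (HSP110, log2 -0.18, SE 0.054), Dnajb5 (log2 -0.26, SE 0.079) and the constitutive HSP70 Hspa8 (log2 -0.13, SE 0.043) also lay lower without passing. Smaller differences were measured for Hsp90ab1 and Dnaja1 (log2 -0.09 and -0.08). The summed level of the list was 6290 to 7240 CPM in untreated and 5894 to 6770 CPM in vehicle libraries, so the ranges overlapped. It was 6475 to 7225 CPM in naive libraries, within the untreated range, and 5785 to 6412 CPM in farnesol libraries. Besides Ier5, Dnajb1 passed the adjusted threshold with RLE scaling, by limma-voom, by DESeq2 and with the 1 CPM filter, and Hspa1b passed by DESeq2. The count of 11 became 5 without the untreated libraries that held Sbp, and 5 again without all 8. Fewer libraries entered those fits, and the median log2 change of the list was -0.09 in the former and -0.08 in the latter. In the 18 libraries alone the count was 8, and it was 9 there with Sbp as a term. The count ran from 8 to 15 when each library was left out.

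ER chaperones and genes of the unfolded protein response showed the same side. In the edgeR fit of all libraries none of 26 genes tested passed the adjusted threshold, 13 lay lower at an unadjusted p below 0.05 and 0 lay higher. The median log2 change was -0.11, and 24 of 26 changes were negative. Hspa5 (BiP, the main HSP70 of the ER) measured 339, 380 and 428 CPM in untreated and 248, 274 and 359 CPM in vehicle libraries (log2 -0.36, SE 0.078, edgeR adjusted p = 0.067). Most vehicle libraries, 7 of 9, lay below the lowest untreated one. Manf, a secreted ER stress protein, measured 44.0, 51.4 and 53.8 CPM in untreated and 35.4, 41.5 and 49.4 CPM in vehicle libraries (log2 -0.28, SE 0.060, edgeR adjusted p = 0.0641). Hyou1, a large HSP70 relative of the ER, had 116, 131 and 156 CPM in untreated and 107, 110 and 129 CPM in vehicle libraries (log2 -0.22, SE 0.046). In each of these genes the groups overlapped in a minority of libraries. Sdf2l1, Pdia4, Creld2, Xbp1 and Pdia6 also lay lower, with log2 changes of -0.47, -0.36, -0.33, -0.26 and -0.22. Pdia4 and Pdia6 are disulfide isomerases, and Xbp1 is the transcription factor of the pathway. Summed levels were 2931 to 3417 CPM in untreated and 2645 to 3229 CPM in vehicle libraries. They were 2759 to 3057 CPM in naive and 2527 to 3061 CPM in farnesol libraries. Calls appeared in other fits, all lower in vehicle libraries. DESeq2 called 6 of the 26 (Hspa5, Manf, Creld2, Hyou1, Pdia4 and Pdia6), limma-voom 4 (Hspa5, Manf, Creld2 and Sdf2l1) and edgeR with the 1 CPM filter 3 (Hspa5, Hyou1 and Manf). Those 3 were also called by edgeR without vehicle replicate 2 and without vehicle replicate 3, and Hyou1 alone without untreated replicate 6 or 7. None was called without the untreated libraries that held Sbp or without all 8. The count of 13 was 10 without the untreated libraries that held Sbp, 12 without all 8, and 12 to 16 when each library was left out. Against naive brains, Hspa5 was higher in untreated EAE (log2 0.48, adjusted p = 3.55e-05), while its change in vehicle EAE was 0.12 (adjusted p = 0.253). The untreated median of Hspa5 (380 CPM) was the highest of the 4 groups, whose other medians were 277 CPM in naive and 265 CPM in farnesol libraries.

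**Figure D3:**
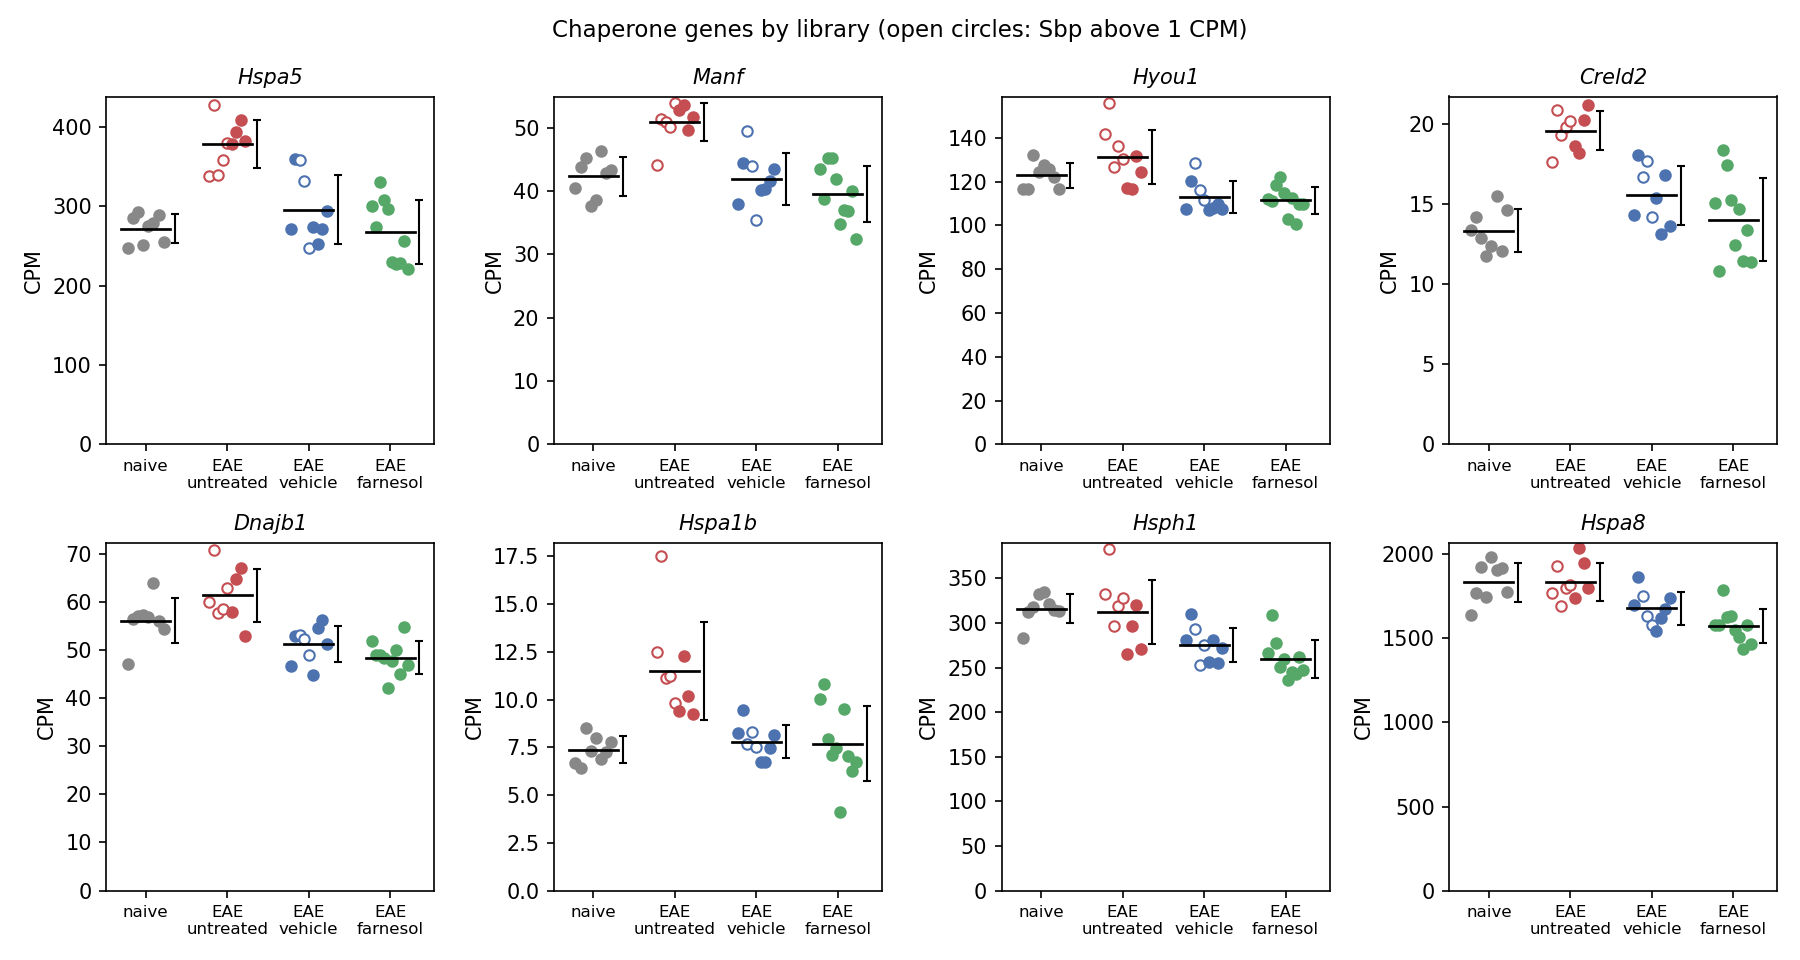
Levels (CPM, linear axes from 0) of 4 ER genes (Hspa5, Manf, Hyou1, Creld2) and 4 cytosolic heat shock genes (Dnajb1, Hspa1b, Hsph1, Hspa8) in every library; bars are means, brackets are the mean ± SD, and open circles mark libraries with Sbp above 1 CPM. Untreated means stand above vehicle means in all 8 panels, and for Hspa5 and Hspa1b the naive, vehicle and farnesol points overlap.

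The promoters of these genes are shown because the chaperone lists are read by different factors. The 250 bases before the RefSeq start (GRCm38.p6, 5′ to 3′ on the gene's strand) were searched on both strands for 2 motifs. A heat shock element was taken as GAANNTTC or TTCNNGAA, and an ER stress element as CCAAT and CCACG separated by 9 bases. The heat shock element was found in 8 of 18 heat shock genes with a window (44.4%), in 1 of 24 ER genes and in 12.8% of all 32851 windows. The ER stress element was found in 8 of 24 ER genes (33.3%), in 0 of 18 heat shock genes and in 0.113% of all windows. The windows of Hspa1b (minus strand, chr17:34959239-34959488), Hspa5 (plus strand, chr2:34771840-34772089), Creld2 (plus strand, chr15:88819396-88819645) and Ier5 (minus strand, chr1:155099637-155099886) are printed with motif ends in capitals.
Hspa1b: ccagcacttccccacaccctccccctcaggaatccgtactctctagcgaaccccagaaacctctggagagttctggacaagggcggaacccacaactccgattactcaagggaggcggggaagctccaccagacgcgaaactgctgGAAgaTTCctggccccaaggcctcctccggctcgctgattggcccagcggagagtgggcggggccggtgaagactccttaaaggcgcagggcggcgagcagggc
Hspa5: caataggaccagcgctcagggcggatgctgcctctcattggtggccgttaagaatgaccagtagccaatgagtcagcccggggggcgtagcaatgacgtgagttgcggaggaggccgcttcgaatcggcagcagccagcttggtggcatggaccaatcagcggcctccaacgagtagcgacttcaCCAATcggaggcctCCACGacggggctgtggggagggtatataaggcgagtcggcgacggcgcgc
Creld2: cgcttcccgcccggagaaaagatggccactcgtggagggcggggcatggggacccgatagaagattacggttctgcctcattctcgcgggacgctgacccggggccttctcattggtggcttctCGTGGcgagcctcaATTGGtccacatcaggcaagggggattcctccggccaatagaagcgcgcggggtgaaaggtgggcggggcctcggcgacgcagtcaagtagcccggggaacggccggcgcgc
Ier5: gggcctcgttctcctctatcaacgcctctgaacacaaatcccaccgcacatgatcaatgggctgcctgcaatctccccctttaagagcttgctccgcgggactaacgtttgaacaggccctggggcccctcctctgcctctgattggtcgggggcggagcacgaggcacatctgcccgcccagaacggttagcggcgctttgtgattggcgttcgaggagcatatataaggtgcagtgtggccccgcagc
The Hspa1b match begins 104 bases before the start, the Hspa5 match 65 bases before and the Creld2 match, which is on the other strand, 126 bases before. Ier5 holds neither motif in this window. Among heat shock genes that were tested and had a window, 5 of 8 with the element and 4 of 10 without it lay lower at an unadjusted p below 0.05. Among ER genes, 5 of 8 with their element and 6 of 15 without it did so. A match of letters is a description of the window and not evidence of binding.

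Immediate early genes of neurons, which are transcribed within minutes of synaptic activity, also lay on the lower side. Of 22 tested, none passed the adjusted threshold in edgeR, 8 lay lower at an unadjusted p below 0.05 and 0 lay higher. The median log2 change was -0.23, and 21 of 22 were negative. Homer1, whose short form is induced by activity, measured 156, 227 and 297 CPM in untreated and 90.3, 173 and 205 CPM in vehicle libraries (log2 -0.52, SE 0.14, edgeR adjusted p = 0.202). Egr3, an activity-induced zinc finger factor, measured 121, 183 and 245 CPM in untreated and 81.8, 136 and 158 CPM in vehicle libraries (log2 -0.56, SE 0.15, edgeR adjusted p = 0.203). For both genes all 9 vehicle libraries lay below the untreated median, but only 3 lay below the lowest untreated library. Arc, which regulates receptor traffic at synapses, spread from 145 to 288 CPM in untreated and from 56.1 to 238 CPM in vehicle libraries (log2 -0.51, SE 0.20). The summed level of the list was 1371 to 1898 CPM in untreated and 830 to 1741 CPM in vehicle libraries. The count of 8 was 12 without the untreated libraries that held Sbp and 4 without vehicle replicate 4, and leaving out untreated replicate 2 gave 5. It was again 8 without all 8 libraries with Sbp. By DESeq2 and by limma-voom it was 5. In the 18 libraries alone it was 4, and 12 there with the replicate number as a block.

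Markers of excitatory neurons and synapses also lay mostly on the lower side. None of 21 genes passed in edgeR, while 7 lay lower at an unadjusted p below 0.05 and 0 lay higher (median log2 -0.12). Besides Homer1, which is on both lists, they included Neurod6, a factor of cortical neurons (45.0 to 55.9 CPM in untreated libraries, with all 9 vehicle libraries below the untreated median, log2 -0.23, SE 0.079), and the vesicular glutamate transporter Slc17a7 (856 to 1318 and 785 to 1010 CPM, log2 -0.20, SE 0.078). The ranges of both genes overlapped. Without the 8 libraries that held Sbp, 2 genes reached that p and the median was -0.02. The value without the 5 untreated ones was 3 genes. Leaving out single libraries moved the count from 7 to 3 (vehicle replicate 4), 4 (untreated replicate 1 or 8), 11 (untreated replicate 7 or 9) or 13 (untreated replicate 6). Slc17a7 averaged 1120 and 888 CPM (untreated and vehicle) in libraries with Sbp, but 980 and 936 CPM in those without it. All 15 cerebellar genes tested had a positive log2 change (median 0.19), as did 10 of 12 olfactory bulb genes (median 0.20). None of either list reached an unadjusted p of 0.05. The cerebellar changes include untreated replicate 3, whose mean log2 level of that list was 4.49 against a group median of 6.94. Without the libraries low in cerebellar genes the synapse count was 8. The part of uneven regional content in these values was not tested.

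Genes of the circadian clock had no common side. Of 19 clock genes 9 had a positive and 10 a negative log2 change, with a median of -0.0055. None passed in the edgeR fit of all libraries, 5 lay higher at an unadjusted p below 0.05 (26.3%) and 2 lay lower. Ciart, a repressor of the clock, measured 9.43, 10.4 and 11.3 CPM in untreated and 9.91, 12.5 and 19.9 CPM in vehicle libraries (log2 0.47, SE 0.11, edgeR adjusted p = 0.0961). Vehicle libraries were more spread. Ciart was called by DESeq2 and by edgeR without vehicle replicate 2. Dbp, a clock-driven transcription factor, measured 48.7 to 78.0 CPM in untreated and 54.5 to 91.9 CPM in vehicle libraries (log2 0.34, SE 0.091). Nr1d2, which encodes REV-ERBβ, measured 121 to 147 and 134 to 158 CPM (log2 0.17, SE 0.047). Per3 and Nr1d1 were also higher (log2 0.22 and 0.14), while Arntl and Clock, the activators of the clock, were lower (log2 -0.16 and -0.10). The sources used here do not give the hour at which brains were collected, and its part in these values was not tested. The number of clock genes higher at that p was 5 without the untreated libraries that held Sbp and 5 without all 8, and the number lower was 4 and 1.

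**Figure D4:**
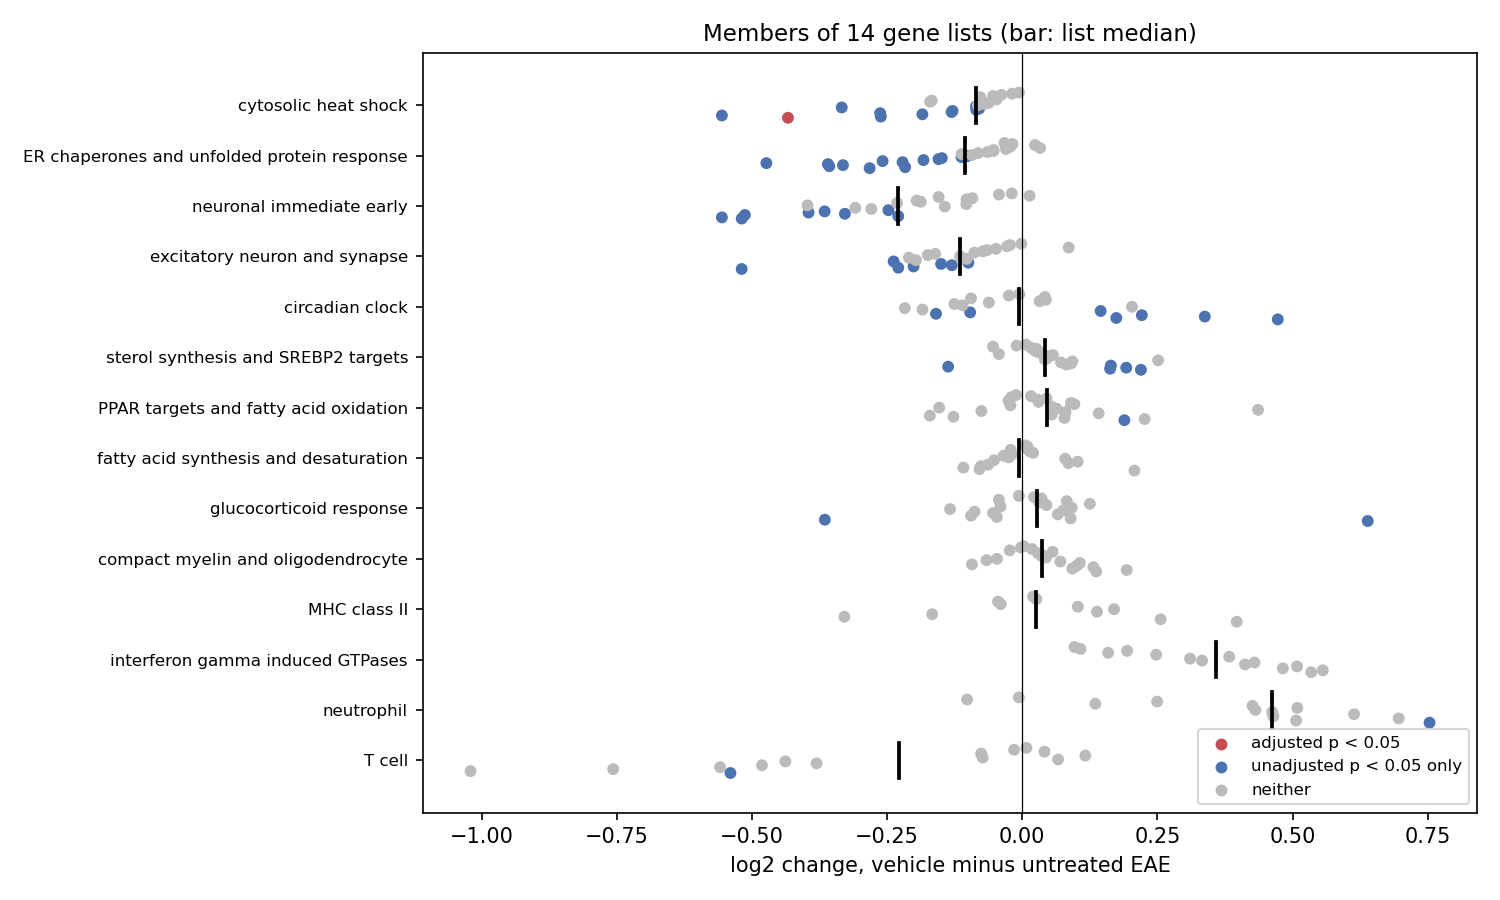
The log2 change (vehicle minus untreated EAE) of each tested member of 14 gene lists, with black bars at the list medians; red marks an adjusted p below 0.05, blue an unadjusted p below 0.05 only and grey neither. Heat shock, ER chaperone, immediate early and synapse members lie mostly left of 0, and interferon gamma GTPases all lie right of 0 without a coloured point.

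No gene of the lipid lists passed the adjusted threshold in edgeR. Among 25 genes of sterol synthesis and SREBP2 targets 21 had a positive log2 change, with a median of 0.04. At an unadjusted p below 0.05, 4 lay higher (16%, against 3.86% of all genes) and 1 lay lower. Lss, the lanosterol synthase, and Insig1, the sterol-sensing brake on SREBP, had log2 changes of 0.16 and 0.19, whereas Srebf2, which encodes SREBP2 itself, had -0.14. The number higher was 2 without the untreated libraries that held Sbp and 3 without all 8. Of 23 PPAR targets and genes of fatty acid oxidation, 0 passed in edgeR and 1 (Cpt2, the mitochondrial carnitine palmitoyltransferase, log2 0.19, SE 0.086) lay higher at an unadjusted p below 0.05. Cpt1a, which controls entry of fatty acids into mitochondria, had a log2 change of 0.05 (SE 0.066). None of 18 genes of fatty acid synthesis, 15 of cholesterol efflux or 9 of lipid droplets reached even an unadjusted p of 0.05. Fasn, the fatty acid synthase, had a log2 change of -0.03 (SE 0.056).

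Genes induced by glucocorticoids, the hormones of the stress response, showed no common side. Of 20 tested none passed in edgeR, and 1 lay higher and 1 lower at an unadjusted p below 0.05. The one higher was Mt2, a metallothionein, with 0.201 to 1.23 CPM in untreated and 0.755 to 1.37 CPM in vehicle libraries (log2 0.64, SE 0.23). These levels are low, and how reads of overlapping genes were counted is not known. The one lower was Cdkn1a, the cell cycle inhibitor p21 (log2 -0.37, SE 0.16). Fkbp5, a sensitive glucocorticoid target, had a log2 change of 0.02 (SE 0.19), and Tsc22d3 (GILZ) one of 0.09 (SE 0.098). Among 19 peptides and receptors of feeding and stress circuits, Pomc alone lay lower at an unadjusted p below 0.05, and this rested on untreated replicate 3, with 350 CPM against a group median of 1.56 CPM. The same library was the one low in cerebellar genes, and without it the Pomc change was 1.12 on the log2 scale. Summed pituitary hormone genes reached 1628 CPM in that library and 1037 CPM in vehicle replicate 8, against medians of 7.53 and 6.12 CPM.

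Immune and glial genes varied widely within each group, and no immune list held a gene past the adjusted threshold in the edgeR fit of all libraries. Without the untreated libraries that held Sbp, Ighm of the B cell list passed (lower, adjusted p = 0.0306), as did Lag3 and Ighg2c, which are on no list. Cd74, a chaperone for the antigen-presenting MHC class II molecules, measured 46.0, 193 and 401 CPM in untreated and 17.0, 67.1 and 935 CPM in vehicle libraries (lowest, median, highest). Its log2 change was -0.04, with a 95% interval from -1.25 to 1.16. None of 11 MHC class II genes reached an unadjusted p of 0.05. All 14 interferon gamma GTPases tested had positive changes (median log2 0.36), again with none at an unadjusted p of 0.05. That sign rested on vehicle replicate 4: without it the median was -0.39. The median was also negative without the untreated libraries that held Sbp (-0.31), without all 8 (-0.78), by limma-voom with sample weights (-0.43) and with the replicate number as a block (-0.27). Gbp2, one of these GTPases, measured 8.07 to 56.2 CPM in untreated libraries, and in vehicle libraries its median was 14.5 CPM with 177 CPM in replicate 4.

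Neutrophil genes were mostly on the higher side (median log2 0.46 over 13 genes, 11 positive), and 1 of them, the collagenase Mmp8, lay higher at an unadjusted p below 0.05 (0.145 to 1.75 CPM in untreated and 0.855 to 3.36 CPM in vehicle libraries). S100a9, the alarmin subunit, measured 3.53, 10.5 and 20.6 CPM in untreated and 7.55, 16.2 and 20.7 CPM in vehicle libraries (log2 0.51, SE 0.25, adjusted p = 0.607). The number of neutrophil genes at that p ran from 0 to 7 as each library was left out, with 7 without untreated replicate 8 and 0 without untreated replicate 3 or 9 or vehicle replicate 2. T cell genes had a summed level of 16.1 to 39.1 CPM in untreated and 18.1 to 44.2 CPM in vehicle libraries. The immunoglobulin gene Igkc, a plasma cell product, measured 0.284 to 13.8 CPM in untreated and 0.203 to 7.98 CPM in vehicle libraries (log2 -1.32, SE 0.58, adjusted p = 0.538). Its untreated libraries fell apart by Sbp: those with Sbp had 0.284 to 2.70 CPM and those without had 7.00 to 13.8 CPM.

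Microglial genes followed the same division of the untreated libraries. Of 14 homeostatic microglia genes, 0 lay past an unadjusted p of 0.05 (median log2 -0.13, 13 negative). Without the untreated libraries that held Sbp, 11 lay lower at that p (median -0.49), and without all 8 it was 12 (median -0.55). P2ry12, the purinergic receptor of resting microglia, averaged 20.2 CPM in untreated libraries with Sbp and 33.5 CPM in those without, against 22.6 CPM in vehicle libraries with Sbp and a range of 15.6 to 28.2 CPM in those without. Gfap, the astrocyte filament gene, showed 452 and 857 CPM in untreated and 621 and 501 CPM in vehicle libraries in the same order. What Sbp marks in these libraries was not tested.

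Oligodendrocyte genes were close to equal. None of 19 reached an unadjusted p of 0.05, and Mbp had a log2 change of 0.00 with a 95% interval from -0.18 to 0.18. Slc1a2, the glutamate transporter of astrocytes, measured 2111 ± 162 CPM (SD, n = 9) in untreated and 1988 ± 140 CPM (SD, n = 9) in vehicle libraries (log2 -0.09, SE 0.053).

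**Figure D5:**
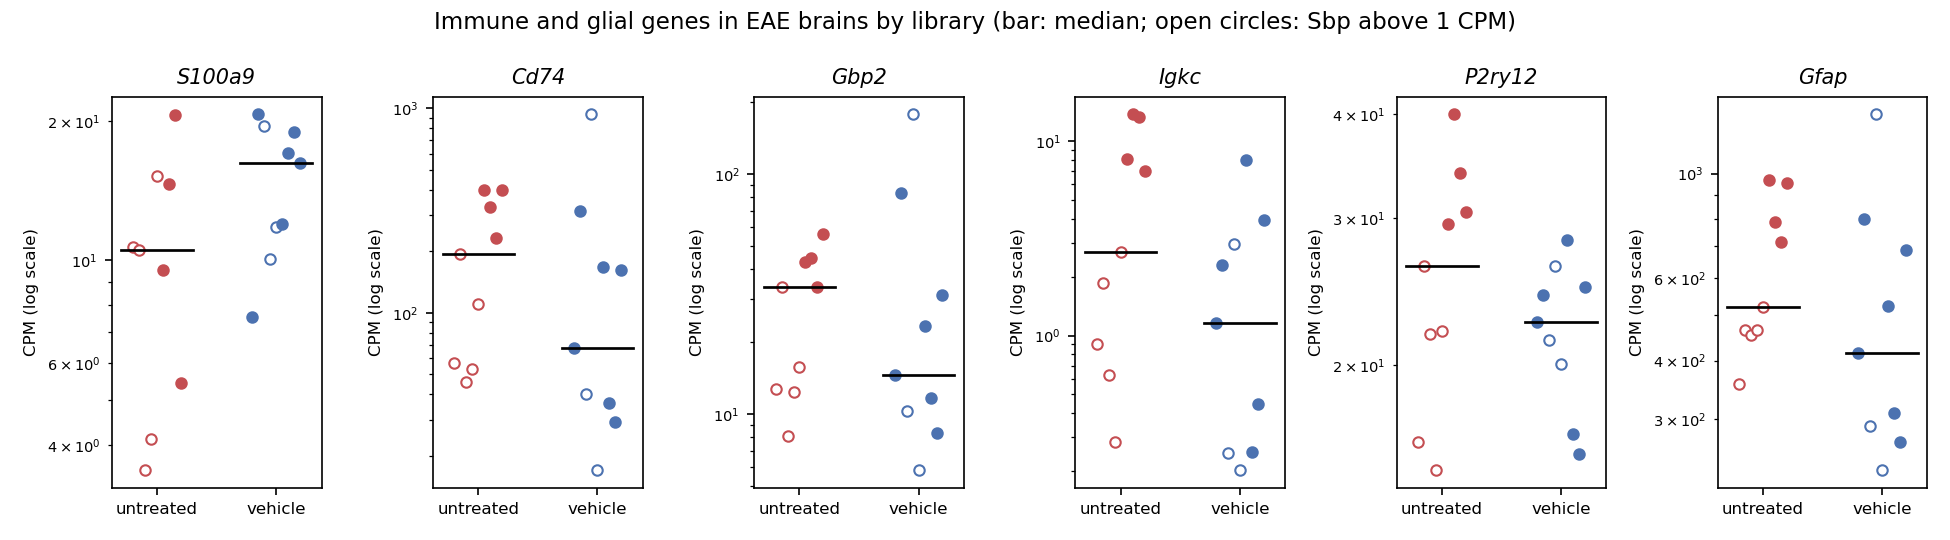
Levels (CPM, log axes) of S100a9, Cd74, Gbp2, Igkc, P2ry12 and Gfap in untreated and vehicle EAE libraries; bars are medians and open circles mark libraries with Sbp above 1 CPM. Untreated open circles lie below untreated filled circles for Cd74, Igkc, P2ry12 and Gfap, and vehicle replicate 4 is the topmost point for Cd74 (935 CPM) and Gbp2 (177 CPM).

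The design bounds the effects that could have been missed. For the median gene the 95% interval reached 0.18 to each side of the log2 change. The interval lay inside -1 to 1 for 17413 genes (94.4%) and inside -0.5 to 0.5 for 13514 genes (73.3%). Fitted changes beyond 1 in either direction were found for 34 genes, none of which passed the adjusted threshold. Spread was not equal in the 2 groups: the SD over libraries was larger in untreated than in vehicle for 64.1% of genes, with medians of 0.19 and 0.16 on the log2 scale.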

How the data were processed

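Whole-brain total RNA was sequenced from 36 mice, of which 18 libraries enter this comparison. The values are raw read counts for each gene, as deposited by the authors in a single table. Reads were mapped with STAR 2.5 to mm10, per the submitters' processing notes; the sources used here do not name the counter, its annotation or its strand setting, so overlapping and antisense genes may share reads. Of 54532 identifiers, 54409 were named by GENCODE M21 (GRCm38), holding 99.9% of counts.

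Low counts were filtered in R 4.3.3 with edgeR 4.0.16 (filterByExpr defaults, minimum count 10 and minimum total 15). The minimum count applies to about as many libraries as the smallest group holds. A tested gene could therefore lack counts in some libraries. After TMM scaling, all 36 libraries entered a single quasi-likelihood fit with 4 group means, and the contrast was vehicle minus untreated. P-values were adjusted by Benjamini-Hochberg over all 18438 genes, with a threshold of 0.05 and no minimum fold. SEs were derived from the log2 change and its F statistic. The steps were tested on simulated counts. For library measures, a two-sided exact permutation test used all 48620 arrangements. Within the untreated group and within the vehicle group, no library was a duplicate of another. Other pairs of libraries were not checked.

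Genes named are those called, the 10 higher and 10 lower genes of smallest p with at least 1 CPM, up to 4 genes of smallest p per list, and reference genes; other genes named, including list members beyond the 4, were chosen after their values were seen. The 49 gene lists, the rule and the comparison were chosen with earlier results of these data known. Alternatives were RLE scaling, DESeq2 1.42.0, limma-voom (limma 3.58.1) with sample weights, other filters, fits of the 18 libraries with or without a replicate block or the mitochondrial share, and leaving out libraries; leaving out all 8 libraries with Sbp and Sbp as a term were added after seeing the data. Promoter windows are from RefSeq (GRCm38.p6), with 18 of 23 and 24 of 27 list members matched. The values of a single listed gene are not reported here.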

Additional observations from a re-analysis of the deposited data

Results flagged for a closer look

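Of 120 groups of 9 library values examined (gene levels and library measures, by group), 14 held 1 library far from the other 8. About 6 would be expected at 1 in 20 if values were normally distributed and groups independent. Several of these genes vary together and some were named after their values were seen, so 14 is not read as an excess. Vehicle replicate 4 was the high value for Cd74 (935 CPM), Gbp2 (177 CPM) and Aif1 (21.2 CPM), which are genes of immune or activated glial cells, and the low value for Srebf2 (198 CPM). Pomc stood at 350 CPM in untreated replicate 3 and at 29.3 CPM in vehicle replicate 8. Untreated replicate 3 was also the low value of the cerebellar list, with a mean log2 level of 4.49. Hspa1b was high in untreated replicate 2 (17.5 CPM), and Manf was low in untreated replicate 1 (44.0 CPM). Igkc was high in vehicle replicate 6 (7.98 CPM), Mmp8 was high in vehicle replicate 2 (3.36 CPM), and Per3 was low in vehicle replicate 9 (41.6 CPM). The mitochondrially encoded share was high in untreated replicate 7 (5.62%). The total count was low in untreated replicate 1 (14.7 M reads).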

How the results depend on the processing

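The count of 4 changed genes (4 lower, 0 higher) depended on the setting, while the negative sign of Ier5, Kcnip3, Synj2 and Fmnl1 was kept in every alternative run. RLE scaling gave 7 genes, all lower. DESeq2 on the 18 libraries gave 58 (50 lower, 8 higher), limma-voom with sample weights 15 (14 lower, 1 higher) and a filter of 1 CPM in 9 libraries 11 (10 lower, 1 higher). Each of these included the 4. Only 1 gene, which was lower, was called in the 18 libraries alone (Ier5), with the mitochondrial share (Ier5), with Sbp as a term (Ier5) and without libraries low in cerebellar genes (Kcnip3). Without the untreated libraries that held Sbp 11 genes were called (8 lower, 3 higher), none of them among the 4, and without all 8 the count was 0, with 906 lower and 531 higher at an unadjusted p below 0.05. Leaving out each library gave 0 to 15 changed genes, 0 to 14 lower and 0 to 1 higher. The cause of these differences was not tested.

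With the replicate number as a block, 1 gene was called, lower (Ier5, adjusted p = 0.0314). Same-numbered libraries did not deviate together (correlations of -0.38 to 0.16, above 0.1 in 3 of 9 pairs, and 0 of 9 untreated libraries matched best by their own number), so the numbers were not taken as pairs.

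Signs reversed for genes that were not called. Pomc (main -2.95) was 1.51 without the untreated Sbp libraries, 1.93 without all 8 and 1.12 without libraries low in cerebellar genes (-4.20 to 1.12 leaving out single libraries). Gbp2 (main 0.48) was -0.44 by limma-voom, -0.26 with the replicate block, -0.13 without the untreated Sbp libraries and -0.63 without all 8 (-0.30 to 0.66). Lcn2 was 0.0094 with the block (-0.12 to 0.073) and Cd74 was 0.026 with Sbp as a term (-0.96 to 0.14). Mbp was -0.0014 by DESeq2, -0.0063 by limma-voom, -0.018 without the untreated Sbp libraries and -0.017 with Sbp as a term (-0.055 to 0.042). Aif1 ran from -0.40 to 0.0028 when single libraries were left out.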
